A study of Mus musculus with 10 samples.

Results

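The genes described here are Lipg, Upp1, Fam20c, Cmah, Olr1, Abca13, Gp49a and L3mbtl3, 8 of the 20556 genes named in the 4 deposited consensus peak tables. They were chosen by their KO over WT signal in H3K36me3 or H3K4me3, which was high in Morrbid-deficient neutrophils relative to wild type. No threshold was fixed, and their values in those 2 marks describe the choice and are no finding. H3K27ac and H3K4me1 did not enter the choice. Members are all rows whose deposited gene name is one of the 8: 68 of 53500 H3K4me3 peaks, 61 of 43255 H3K36me3 peaks, 103 of 67733 H3K27ac peaks and 105 of 81980 H3K4me1 peaks. That makes 337 of 246468 peaks. Olr1 had no H3K36me3 peak under its name and was therefore measured in 3 marks.

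The study used ChIP-seq, the sequencing of DNA pulled down with an antibody to a histone mark, in sorted mouse neutrophils that were not cultured. Wild-type C57BL6 mice (WT) were compared with mice of the same background deficient in Morrbid (KO), a long non-coding RNA whose gene lies near the pro-apoptotic gene Bcl2l11. Each mark was measured in 1 library per genotype, so there is no replicate, no test and no p-value. The sort gate, the age and sex of the mice, the number pooled and the way the allele was made are not given in the sources used here.

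H3K4me3 marks the starts of active or poised genes, H3K27ac marks active starts and enhancers, H3K4me1 marks enhancers and the edges of starts, and H3K36me3 is laid down over gene bodies by the enzyme that travels with elongating RNA polymerase. A gene can therefore carry a start mark and a body mark that need not move together. The 8 genes do not form 1 pathway. Lipg encodes endothelial lipase, which hydrolyses lipoprotein phospholipids. Upp1 encodes uridine phosphorylase, which splits uridine. Fam20c encodes a Golgi kinase of secreted proteins, and Cmah encodes the hydroxylase that turns one form of sialic acid (Neu5Ac) into another (Neu5Gc). Olr1 encodes LOX-1, a receptor for oxidised lipoprotein, and Gp49a encodes an immunoglobulin-like receptor of myeloid and mast cells. Abca13 encodes a very large ABC transporter, and L3mbtl3 encodes a protein whose MBT domains bind methylated lysine.

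Promoter sequences from RefSeq (GRCm38.p6, 250 bases before to 50 bases after each annotated start) matched 7 of the 8 genes, all but Lipg, with 11 starts among them. 1 start of each matched gene is shown, because these promoters differ widely in CpG content. Each runs 5′ to 3′ on the gene's strand, with every CpG in capitals. The first 5 belong to Upp1 (the first of 3 starts, chr11:9117758-9118057, plus strand), Olr1 (chr6:129507116-129507415, minus strand), Abca13 (chr11:9191692-9191991, plus strand), Gp49a (listed by RefSeq as Lilr4b, chr10:51480362-51480661, plus strand) and Cmah (the downstream of 2 starts, chr13:24414872-24415171, plus strand). The last pair belongs to Fam20c (chr5:138754831-138755130, plus strand) and L3mbtl3 (the first of 2 starts, chr10:26375170-26375469, minus strand).
Upp1: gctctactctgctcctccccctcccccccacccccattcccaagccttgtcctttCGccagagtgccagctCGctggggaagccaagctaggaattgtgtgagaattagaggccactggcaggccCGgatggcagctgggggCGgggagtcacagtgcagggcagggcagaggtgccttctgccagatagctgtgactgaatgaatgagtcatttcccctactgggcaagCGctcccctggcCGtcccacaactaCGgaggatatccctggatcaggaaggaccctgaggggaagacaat
Olr1: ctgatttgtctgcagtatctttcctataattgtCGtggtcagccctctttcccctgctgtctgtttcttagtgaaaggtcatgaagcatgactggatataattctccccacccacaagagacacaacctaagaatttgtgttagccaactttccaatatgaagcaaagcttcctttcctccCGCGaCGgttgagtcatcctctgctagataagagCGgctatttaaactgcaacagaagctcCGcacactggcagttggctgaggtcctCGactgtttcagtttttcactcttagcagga
Abca13: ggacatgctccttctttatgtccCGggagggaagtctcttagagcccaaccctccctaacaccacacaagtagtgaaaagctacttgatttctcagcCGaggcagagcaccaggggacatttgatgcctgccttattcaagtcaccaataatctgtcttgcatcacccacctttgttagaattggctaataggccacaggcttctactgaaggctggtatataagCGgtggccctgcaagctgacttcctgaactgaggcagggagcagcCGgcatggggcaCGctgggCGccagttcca
Gp49a: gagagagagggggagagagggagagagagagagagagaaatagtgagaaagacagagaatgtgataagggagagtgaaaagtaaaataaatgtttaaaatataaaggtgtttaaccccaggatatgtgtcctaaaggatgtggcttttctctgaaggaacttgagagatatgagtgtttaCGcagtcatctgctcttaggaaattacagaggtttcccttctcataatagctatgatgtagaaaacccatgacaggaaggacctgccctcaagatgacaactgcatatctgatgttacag
Cmah: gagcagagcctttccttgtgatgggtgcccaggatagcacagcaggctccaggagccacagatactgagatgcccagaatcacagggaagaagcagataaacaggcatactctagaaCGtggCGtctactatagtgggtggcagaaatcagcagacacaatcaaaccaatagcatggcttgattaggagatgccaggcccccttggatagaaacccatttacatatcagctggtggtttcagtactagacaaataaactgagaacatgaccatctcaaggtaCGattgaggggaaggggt
Fam20c: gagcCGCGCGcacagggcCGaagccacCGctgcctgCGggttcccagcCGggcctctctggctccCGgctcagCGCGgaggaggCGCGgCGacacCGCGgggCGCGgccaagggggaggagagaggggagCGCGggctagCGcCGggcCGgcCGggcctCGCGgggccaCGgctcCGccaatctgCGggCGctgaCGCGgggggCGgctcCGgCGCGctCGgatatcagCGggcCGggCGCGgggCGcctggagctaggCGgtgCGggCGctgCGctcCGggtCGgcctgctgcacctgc
L3mbtl3: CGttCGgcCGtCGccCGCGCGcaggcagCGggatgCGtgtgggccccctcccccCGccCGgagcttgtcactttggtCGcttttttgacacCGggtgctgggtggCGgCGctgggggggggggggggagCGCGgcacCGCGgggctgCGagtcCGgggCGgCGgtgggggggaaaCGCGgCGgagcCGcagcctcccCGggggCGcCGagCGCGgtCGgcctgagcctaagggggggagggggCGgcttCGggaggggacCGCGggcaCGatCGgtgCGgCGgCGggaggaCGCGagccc

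The promoters of Fam20c and L3mbtl3 were dense in CpG. Fam20c held 47 CpGs in 300 bases and a GC content of 80.7%, and the 2 starts of L3mbtl3 held 44 and 42. The other matched genes were poor or ordinary in CpG beside a median of 7 over all 32851 promoters of the table. Gp49a held 1 CpG, each of the 2 starts of Cmah held 3, Abca13 held 6, Olr1 held 7, and the 3 starts of Upp1 held 7, 8 and 13. Fam20c and L3mbtl3 thus lay above at least 97.0% of all promoters, and no other matched start lay above more than 62.1% of them. CpG-dense starts usually carry H3K4me3 in most cell types, as background knowledge. In the WT library L3mbtl3 and Fam20c had the densest H3K4me3 of the 8 genes, at 168 and 101 normalized reads per kb of peak, while the others had between 19.5 (Cmah) and 54.6 (Gp49a).

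5 motifs were searched on both strands of the 11 member promoters. The AP-1 motif TGANTCA matched 3 of 11, beside 7.81% of all promoters. It stood as TGAGTCA in Olr1, with its first base at -60 from the start, and in Upp1 at -45 from the first start and -140 from the second, which is the same site because these starts overlap. The PU.1 motif GAGGAA matched 1 of 11 (Olr1, on the opposite strand, at -76), beside 28.3% of all. The C/EBP motif TTGCNNAA matched 0 of 11, beside 10.8%. The NF-kB motif (GGG and CC with 5 free bases between them) matched 8 of 11, beside 50.8%. The first and second starts of Upp1 share 1 site here too, so the 8 matches are not all separate. The TATA box TATAAA matched 1 of 11 (Gp49a, at -151), beside 13.6%. A match is a run of letters and not a measured binding site, and the overlap between motifs was not counted.

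Depth differed between the genotypes. Reads recovered inside peaks ran from 10265524 to 14317664 in the KO libraries and from 2250264 to 11618230 in the WT libraries, and the KO exceeded the WT 3.85 times in H3K4me3, 1.13 times in H3K36me3, 4.56 times in H3K27ac and 5.87 times in H3K4me1. The WT reads therefore limit the precision in every mark but H3K36me3. Peaks named after Morrbid (Gm14005 in the tables) were lower in the KO in all 4 marks, for example 739 against 4809 normalized reads in H3K36me3. Neutrophil markers carried signal, with 8 of 10 measured in H3K4me3 at a median WT density of 93.7 normalized reads per kb. Of 6 neutrophil precursor genes, all measured in H3K4me3, 3 were at least 1.5-fold higher in the KO, beside 6.57% of all genes. The summed H3K4me3 of the 6 was 1336 in KO against 887 in WT. On 20 or more reads in each library the count was 2 of 5, beside 2.14% of all such genes. These were Prtn3, a primary granule protease, higher by 0.69, and Ms4a3, higher by 1.01 on the log2 scale. In H3K36me3 2 of 4 precursor genes were at least 1.5-fold higher, beside 6.12% of all genes. 1 of the 2, Ctsg, rested on 12 WT reads, at 0.89 (-0.09 to 1.92). On 20 or more reads in each library the H3K36me3 count was 1 of 3, and the share of all genes at that depth was not counted. In H3K27ac and H3K4me1 0 of 5 precursor genes were at least 1.5-fold higher, beside 4.5% and 3.88% of all genes. Summed H3K4me3 in KO and WT was 3524 and 3281 over 7 of 10 monocyte and macrophage markers, 733 and 537 over 4 of 6 B cell markers, 145 and 153 over 3 of 6 T cell markers, 143 and 118 over 3 of 8 eosinophil, basophil and mast cell markers, and 426 and 351 over 3 of 7 erythroid and platelet markers. The part of these markers in the results below was not tested.

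A gene's value is the sum of the deposited normalized reads over all its peaks. The difference is log2 of (KO + 1) over (WT + 1), minus the median of that quantity over the mark's stronger genes, those whose mean value reached the median, called the centred log2 below. It is given with an exact (Clopper-Pearson) 95% binomial interval on the recovered reads, which covers counting error only. All members were stronger genes by this definition in every mark in which they were measured.

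Agreement over the marks was partial, and the 8 genes fell into separate patterns. Lipg, Upp1 and Fam20c were higher in the KO in all 4 marks, each with an interval above 0. Cmah had an interval above 0 in 3 marks, Abca13 in 2, and Olr1, Gp49a and L3mbtl3 in 1 each. The second mark of Abca13, H3K36me3 at 0.04, depended on the centring: the interval included 0 when centred on all peaks (-0.01 to 0.03) or on genes of similar density (-0.0034 to 0.04). Its H3K27ac interval lay below 0 with the density centring, at -0.13 (-0.24 to -0.02). The intervals of the 7 other members kept their side of 0 under all 4 centrings in every mark where they were measured. L3mbtl3 was the exception in direction, with an interval below 0 in H3K4me3. In a bulk sample, more cells with a mark and more mark per cell cannot be told apart. In H3K4me3, 5 of 8 genes were at least 1.5-fold higher in the KO, beside 6.57% of all 18050 genes, and in H3K36me3 2 of 7 were, beside 6.12% of all 12745. Among the stronger genes the shares were 0.377% and 0.0628%. The interval lay above 0 for 7 of 8 genes in H3K4me3 and 6 of 7 in H3K36me3, beside 10.2% and 9.03% of all genes and 12% and 9.59% of the stronger ones. Those are the marks that chose the genes, so nothing is read from these counts. The H3K4me3 count was 2 of 8, beside 4.24% of all genes, when genes were centred on others of similar signal density, an alternative chosen after seeing the data.

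In H3K27ac and H3K4me1, which did not choose the genes, 0 of 8 reached 1.5-fold, beside 4.5% of all 17391 genes and 3.88% of all 18929 genes. For the stronger genes these shares were 0.402% and 0.0845%. Smaller differences were present. The interval lay above 0 for 4 of 8 genes in H3K27ac (Lipg, Upp1, Fam20c and Cmah), beside 5.07% of all and 7.53% of the stronger genes. It lay above 0 for 3 of 8 in H3K4me1 (Lipg, Upp1 and Fam20c), beside 3.31% of all and 4.92% of the stronger genes. The median centred log2 of the 8 genes was 0.12 in H3K27ac and 0.08 in H3K4me1, beside -0.04 and -0.02 over all genes. In H3K4me3 and H3K36me3 the medians were 0.64 and 0.55, beside 0.02 and 0.01.

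**Figure D1:**
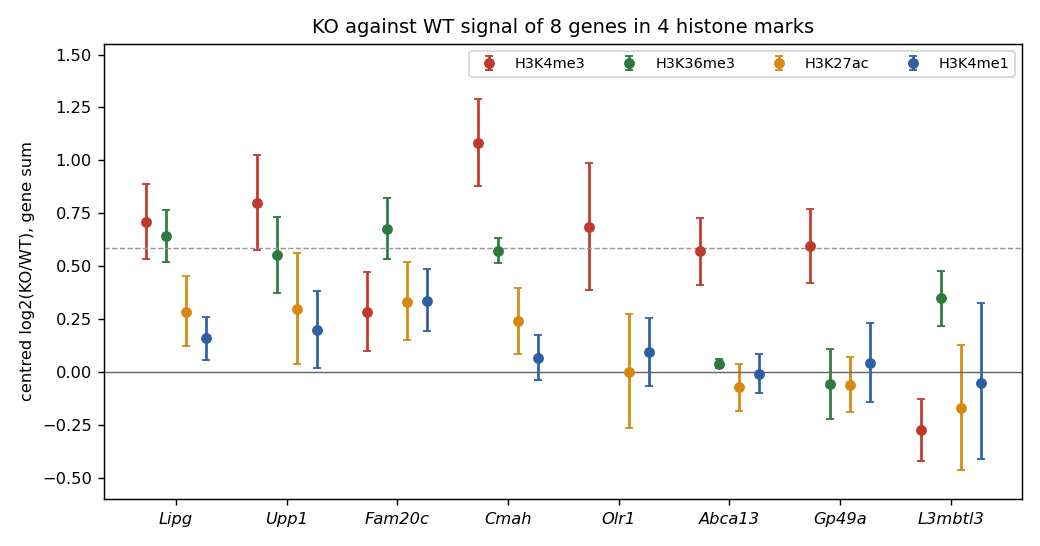
Centred log2(KO/WT) of the summed signal of each gene (y axis) for the 8 genes (x axis), coloured by mark; bars are 95% counting intervals, the solid line is 0 and the dashed line 1.5-fold. Lipg, Upp1 and Fam20c sit above 0 in all 4 marks, Olr1, Abca13 and Gp49a stand out in H3K4me3, and L3mbtl3 is below 0 in H3K4me3 and above it in H3K36me3.

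**Figure D2:**
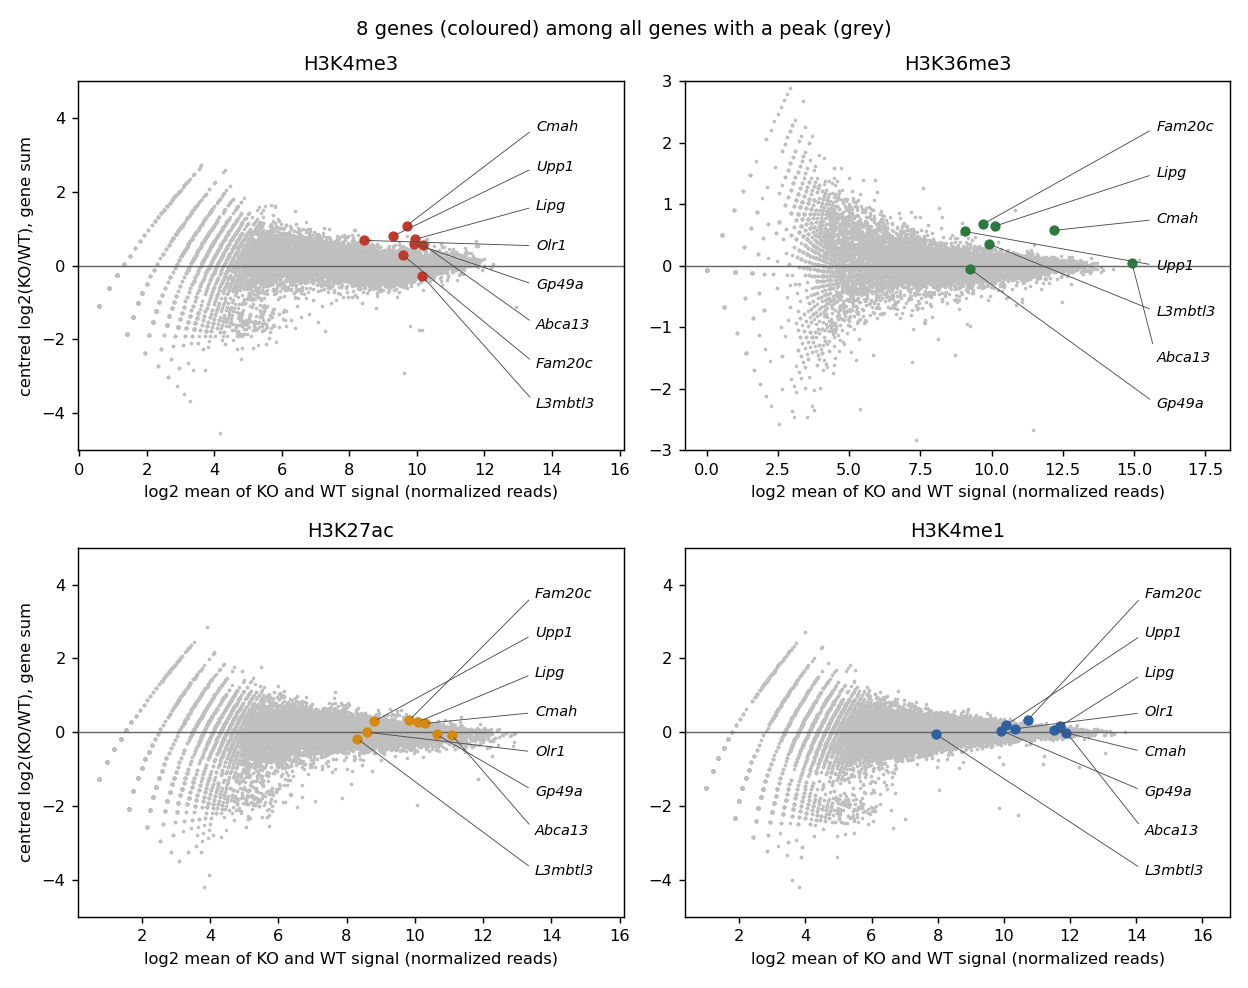
Centred log2(KO/WT) of every gene (y axis, scaled per panel) against the log2 mean of its KO and WT signal (x axis), 1 panel per mark, with the 8 genes coloured and named. The members lie at the upper edge of the cloud in H3K4me3 and H3K36me3, which chose them, except L3mbtl3 and Fam20c in H3K4me3 and Abca13 and Gp49a in H3K36me3, and nearer the middle in H3K27ac and H3K4me1.

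Lipg and Upp1, the lipase and the uridine phosphorylase, were higher in start and body marks together. Over the 4 marks each was the gene nearest to the other among 3691 compared genes, at a Euclidean distance of 0.13 between their centred log2 values. Gp49a and Abca13 were closer still, at 0.11, but neither was the gene nearest to the other. Genes that are not members were nearer. Cybb was at 0.09 from Gp49a, and Ikbke and Cybb were at 0.07 and 0.09 from Abca13. These distances include the marks that chose the members. Cybb and Ikbke were each at 0.58 in H3K4me3, so this profile was not limited to the members.

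Lipg on chromosome 18 (mm9) had 38 peaks. Its H3K4me3 peak over the start and first intron, chr18:75111923-75122906, held 828 normalized reads in KO against 475 in WT, a centred log2 of 0.73 (0.51 to 0.95). A second H3K4me3 peak in intron 8 of 9, chr18:75098757-75108865, held 190 and 65.9, a centred log2 of 1.44 (0.89 to 2.04), on 28 WT reads. Both H3K4me3 peaks over the gene were thus higher in the KO, and the inner one by the larger factor. H3K36me3 lay in a single body peak, chr18:75097588-75118210, with 965 in KO against 517 in WT, a centred log2 of 0.92 (0.76 to 1.08). The H3K27ac peak at the promoter, chr18:75120170-75122291, was weak, with 82.5 in KO against 33.0 in WT, a centred log2 of 1.24 (0.40 to 2.19) on 12 WT reads.

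Most H3K27ac and H3K4me1 under the name Lipg lay far beyond the gene. An intergenic H3K27ac peak at chr18:75052647-75065261, 62.0 kb from the annotated start, held 576 in KO against 391 in WT, a centred log2 of 0.50 (0.25 to 0.77), which is 71.3% of the gene's H3K27ac difference. A wide H3K4me1 peak over the same stretch, chr18:75034039-75073932, held 2360 and 2113, a centred log2 of 0.13 (0.0035 to 0.25). The H3K4me1 peak over the gene itself, chr18:75102515-75124385, held 932 and 853, at 0.09 (-0.10 to 0.29). These regions are assigned to Lipg by nearest start in the deposited tables. Peaks of other genes within 100 kb were at -0.14 (-0.27 to -0.0043) in H3K4me3 and -0.04 (-0.11 to 0.04) in H3K36me3, against 0.71 and 0.64 for Lipg itself. In H3K27ac and H3K4me1 the same flanks were closer to the gene, at 0.20 (0.06 to 0.35) and 0.13 (-0.02 to 0.29), against 0.29 and 0.16 for Lipg.

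Upp1 on chromosome 11 showed the same order in a smaller space. Its H3K4me3 peak over the start, chr11:9016112-9028553, held 731 in KO against 405 in WT, a centred log2 of 0.78 (0.55 to 1.02), which is 89.4% of the gene's H3K4me3 difference. The H3K36me3 body peak, chr11:9020284-9036223, held 549 and 361, at 0.63 (0.43 to 0.83). At the promoter itself, chr11:9017600-9019544, H3K27ac was 122 in KO against 57.8 in WT, at 1.01 (0.36 to 1.72) on 21 WT reads. That peak ranked 6 by centred log2 among the 16935 strongest H3K27ac peaks. The other H3K27ac peaks of note stood near 0, with 201 against 176 in intron 2 of 8 (0.13, -0.26 to 0.54) and 179 against 157 in the intergenic peak 27.8 kb from the start (0.13, -0.28 to 0.57). The H3K27ac interval at Upp1 thus lay above 0 at the promoter and included 0 in the intron and the intergenic peak. These intervals overlap, and the difference between positions was not tested. Peaks of Abca13 and Sun3 within 100 kb were at 0.58 (0.41 to 0.75) in H3K4me3, against 0.80 for Upp1. In H3K36me3 the flanks were at 0.05 (0.01 to 0.09), against 0.55.

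**Figure D3:**
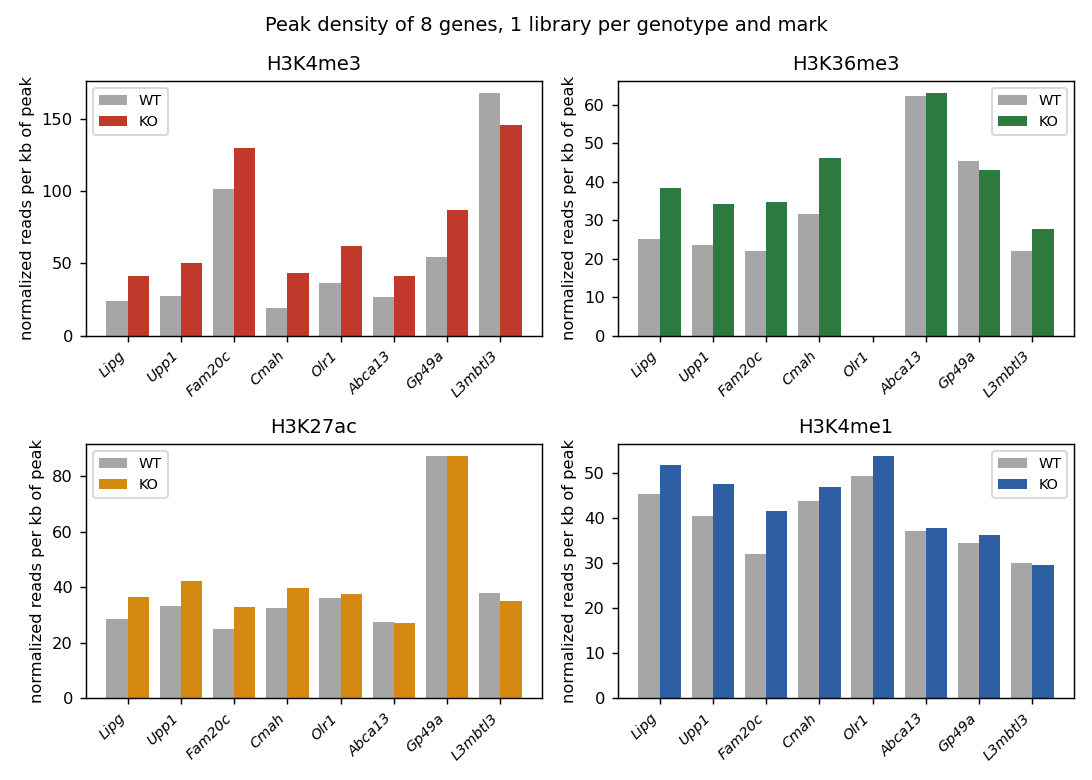
Summed normalized reads per kb of peak (y axis, from 0, scaled per panel) for each gene in the WT (grey) and KO (coloured) library of each mark; 1 library per bar, so no error bar is drawn. Fam20c and L3mbtl3 have the densest H3K4me3 in both genotypes, Abca13 has the densest H3K36me3, and Gp49a the densest H3K27ac.

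Fam20c and Cmah shared a higher H3K36me3 over the gene body and differed at the start. Fam20c, the secretory kinase on chromosome 5, had its H3K4me3 peak at the first exon, chr5:139229712-139233102, with 762 in KO against 628 in WT, a centred log2 of 0.21 (0.02 to 0.40). Its H3K36me3 was higher in the peak centred in intron 3 of 9, chr5:139240708-139254501, with 449 and 279, at 0.71 (0.49 to 0.93), and in the peak nearer the start, chr5:139232171-139239685, with 321 and 196, at 0.73 (0.47 to 0.99). 3 further H3K36me3 peaks in the Fam20c body carry the name Gm5294 in the deposited table. Including them, all 5 body peaks were higher in the KO, with 1663 and 1076 in sum, at 0.65 (0.54 to 0.76). This sum was added after seeing the data. Peaks of Gm5294, the only other gene named within 100 kb, were at 0.31 (0.09 to 0.53) in H3K4me3, against 0.28 for Fam20c. In H3K36me3 they were at 0.38 (0.26 to 0.50), the 3 body peaks included, against 0.68. In H3K27ac and H3K4me1 they were at 0.01 (-0.16 to 0.18) and 0.14 (-0.01 to 0.31), against 0.33 and 0.34.

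H3K27ac and H3K4me1 of Fam20c, summed over peaks of its own name, were higher in the KO. With the body peaks named Gm5294, which were at -0.03 in H3K27ac and -0.09 in H3K4me1 by themselves, the body as a whole was at 0.24 (0.04 to 0.45) and 0.19 (0.01 to 0.38). The intronic H3K27ac peak chr5:139249489-139264324 held 407 in KO against 314 in WT, at 0.32 (0.03 to 0.62). An upstream H3K27ac peak 67.3 kb before the start held 112 and 52.3, at 1.03 (0.35 to 1.78), on 19 WT reads, while its neighbour 71.3 kb before the start held 110 and 105, at 0.01 (-0.50 to 0.55). In H3K4me1 the 8 peaks outside the gene summed to 1023 and 761, at 0.39 (0.19 to 0.60). The highest of the 8 genes in H3K4me1 was Fam20c, at 0.34 (0.19 to 0.48). Its nearest profile was that of Bcl2l11, which encodes Bim, at a distance of 0.30, with Bcl3 close behind at 0.32. Bcl2l11 was at 0.91 in H3K36me3 and 0.41 in H3K27ac.

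Cmah, the sialic acid hydroxylase on chromosome 13, had the highest centred log2 of the 9025 stronger genes in H3K4me3, at 1.08 (0.88 to 1.29), by a sum of 1140 in KO against 513 in WT. The signal did not lie at an annotated start. The peak chr13:24465793-24473412 in intron 2 of 17 of the longer transcript, 37.4 kb before the downstream start, held 689 and 217, at 1.60 (1.29 to 1.92), and made up 75.4% of the gene's difference. Among the 13376 strongest H3K4me3 peaks it ranked 1, in the mark that chose the gene. The peak at the downstream start, chr13:24503697-24509214, held 95.4 and 40.0, at 1.16 (0.45 to 1.96), on 17 WT reads.

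The same intronic stretch carried H3K27ac in chr13:24460145-24474002, with 773 in KO against 556 in WT, at 0.42 (0.20 to 0.64), and H3K4me1 in chr13:24457421-24478007, with 990 and 924, at 0.07 (-0.12 to 0.26). Of the 3 marks over this element H3K4me3 differed most, but it is a mark that chose the gene. The choice favours that order, so nothing is read from it. H3K36me3 was higher in all 10 peaks of the gene. The peak downstream of the second start, chr13:24505332-24570237, held 3510 and 2231, at 0.68, and the gene as a whole 5616 and 3834, at 0.57 (0.51 to 0.63). Peaks of other genes within 100 kb were at 0.47 (0.07 to 0.89) in H3K27ac on 58 WT reads, against 0.24 for Cmah. In H3K4me3 they were at 0.20 (-0.14 to 0.56), against 1.08. In H3K36me3 they were at 0.69 (-0.22 to 1.64) on 15 WT reads, and in H3K4me1 at -0.35 (-0.61 to -0.09).

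**Figure D4:**
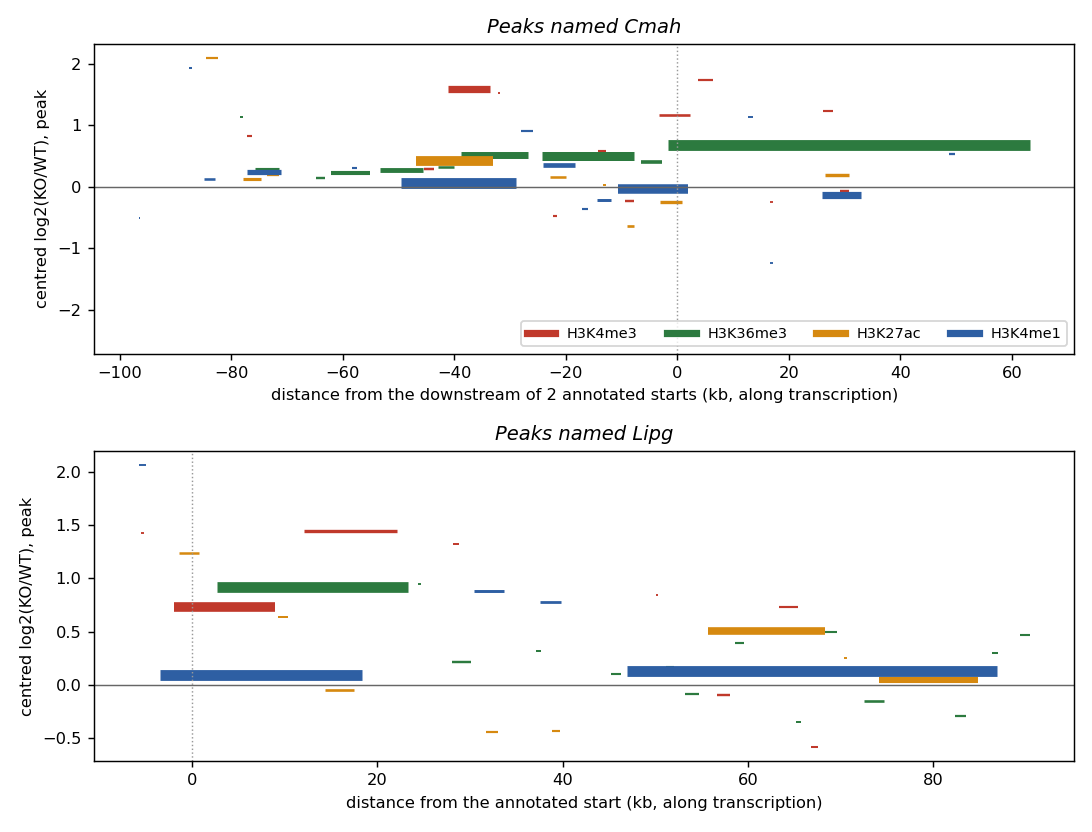
Peaks named Cmah (top) and Lipg (bottom) by distance from an annotated start in kb along transcription (x axis) and centred log2(KO/WT) (y axis); each line spans 1 peak, is coloured by mark, and is thicker where it holds more signal. At Cmah the strong H3K4me3 peak at 1.60 lies 37.4 kb before the downstream start, above H3K27ac at 0.42, and at Lipg the H3K4me3 and H3K36me3 peaks over the gene sit above the H3K4me1 peak at 0.09.

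Abca13, Olr1 and Gp49a were higher in H3K4me3 at the start and close to 0 in the other marks. H3K4me3 is a mark that chose the genes, so the choice favours this order of marks. At Abca13, the transporter gene next to Upp1, the start peak chr11:9089665-9099632 held 918 in KO against 541 in WT, a centred log2 of 0.69 (0.49 to 0.90). Its H3K36me3 was the strongest of the 8 genes, with 31154 in KO against 30787 in WT over 2 body peaks, at 0.04 (0.02 to 0.06). This interval rests on 28692 WT reads, and its upper bound lies far under 1.5-fold. H3K27ac at the start held 327 and 330, at -0.07 (-0.36 to 0.23). The 36 H3K4me1 peaks summed to 3833 and 3767, at -0.01 (-0.10 to 0.08).

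At Gp49a on chromosome 10 the H3K4me3 peak chr10:51199819-51207001 held 922 in KO against 522 in WT, at 0.75 (0.54 to 0.96). The overlapping H3K27ac peak chr10:51198132-51204704 held 733 and 754, at -0.10 (-0.29 to 0.10), and the H3K36me3 peak chr10:51201031-51209687 held 485 and 477, at 0.05 (-0.14 to 0.23). A higher H3K4me3 was thus seen over a start whose acetylation and body mark had intervals that include 0. The neighbouring Lilrb4, the inhibitory member of the same receptor pair, was at 0.53 (0.37 to 0.70) in H3K4me3. The 2 genes are close copies, so reads may have been split between them and neither value is certain.

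At Olr1 on chromosome 6 the H3K4me3 peak chr6:129453549-129457594 held 373 in KO against 224 in WT, at 0.66 (0.35 to 0.99). H3K27ac over it, chr6:129453355-129458963, held 248 and 245, at -0.04 (-0.38 to 0.30), and the wide H3K4me1 peak held 1313 and 1206, at 0.09 (-0.07 to 0.25). The neighbour Clec7a, which encodes the fungal glucan receptor Dectin-1, went the other way in H3K4me3, with 215 in KO against 358 in WT, at -0.80 (-1.08 to -0.51). Peaks of all 5 other genes within 100 kb, Clec7a included, held 722 in KO against 847 in WT in H3K4me3, at -0.30 (-0.47 to -0.12). This sum is therefore not separate from the Clec7a value. The genes nearest to Olr1 in profile over 3 marks were Ltf, the lactoferrin gene, and Pde4d, at distances of 0.04 and 0.10 among 5735 genes. Ltf is also a neutrophil marker, and its H3K4me3 was 4299 in KO against 2561 in WT. It was the only 1 of 8 measured neutrophil markers at least 1.5-fold higher in H3K4me3, beside 6.57% of all genes. The median centred log2 of the 8 was 0.10, and their sum was 22122 in KO against 18790 in WT.

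Over the H3K4me3 of these genes a general shift was present. Peaks of similar width and density to the strongest peak of each gene had a median centred log2 of 0.16 for Lipg, 0.19 for Upp1, 0.17 for Cmah, 0.10 for Olr1, 0.11 for Abca13 and 0.06 for Gp49a, and of -0.12 for Fam20c and -0.14 for L3mbtl3. Peaks as sparse as those of the first 6 genes were thus higher at the median in the KO library, and peaks as dense as those of Fam20c and L3mbtl3 were lower. Width alone gave medians from -0.03 to 0.11. Centred on genes of similar density, Cmah was at 0.91, Upp1 at 0.64, Olr1 at 0.56, Lipg at 0.54, Gp49a at 0.52, Abca13 at 0.41, Fam20c at 0.26 and L3mbtl3 at -0.23. In this order Olr1 and Lipg had changed places, and no sign had turned.

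L3mbtl3, the MBT domain gene on chromosome 10, had less H3K4me3 in the KO than in the WT and more H3K36me3. Its start peak in H3K4me3, chr10:26092765-26096934, held 1022 in KO against 1191 in WT, at -0.29 (-0.44 to -0.14), and H3K27ac over it, chr10:26093248-26096153, held 195 and 242, at -0.37 (-0.71 to -0.01). H3K36me3 over the body went the other way, with 1082 in KO against 864 in WT over 9 peaks named L3mbtl3, at 0.35 (0.22 to 0.48). The peak with the highest mean of the 2 libraries was at 0.13 (-0.09 to 0.36). 6 more H3K36me3 peaks in its body carry the name Samd3. With them 14 of 15 body peaks were higher in the KO, at 0.40 (0.30 to 0.51). Within 100 kb the only H3K36me3 peaks of another name were the 6 named Samd3. The nearest gene beyond with a peak in this mark, Arhgap18, lay farther off and was at 0.41 (0.25 to 0.58) over all its peaks.

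**Figure D5:**
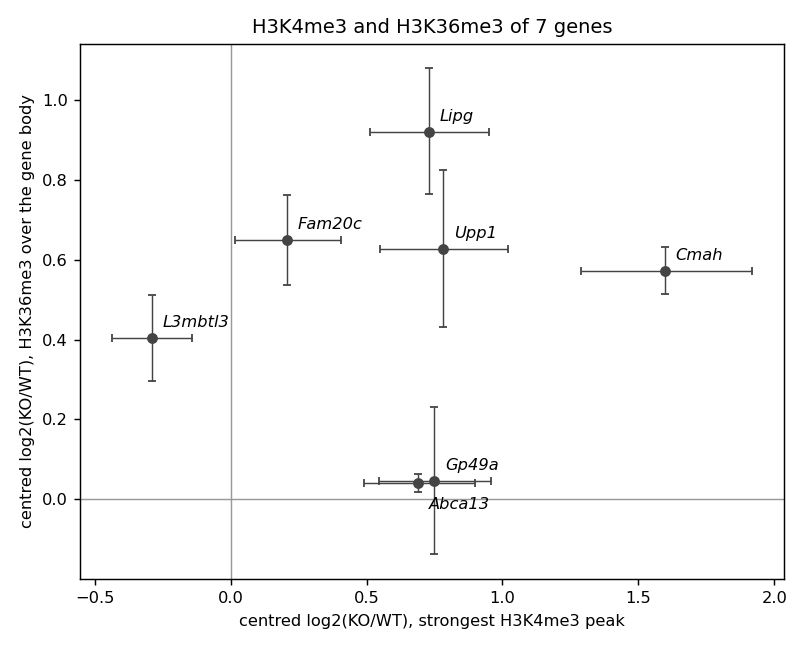
Centred log2(KO/WT) of the strongest H3K4me3 peak (x axis) and of H3K36me3 summed over the gene body, whatever name its peaks carry (y axis), for the 7 genes with H3K36me3; bars are 95% counting intervals. Lipg, Upp1 and Cmah are high on both axes, Abca13 and Gp49a lie near 0 in H3K36me3, Fam20c is high mainly in H3K36me3, and L3mbtl3 is left of 0.

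By position, 32 of the 337 peaks (9.50%) had their centre within 5 kb of an annotated start of the gene, 159 (47.2%) lay in the gene body and 146 (43.3%) lay outside it, beside 23.2%, 28.0% and 48.9% of all 246468 peaks. Of the 68 H3K4me3 peaks, 79.4% overlapped an H3K27ac peak, 85.3% an H3K4me1 peak and 57.4% an H3K36me3 peak, beside 81.8%, 85.7% and 26.5% of all H3K4me3 peaks. Of the 61 H3K36me3 peaks, 26.2% overlapped an H3K4me3 peak, beside 25.3% of all. The share of peaks above 0 was 61.8% in H3K4me3, 78.7% in H3K36me3, 52.4% in H3K27ac and 59.0% in H3K4me1, beside 46.1%, 54.6%, 45.6% and 47.5% of all peaks. H3K4me3 and H3K36me3 chose the genes, so nothing is read from their shares. Many of these peaks hold few reads. With at least 10 reads per peak the shares were 80.0%, 78.7%, 62.8% and 68.9% in the same order of marks. Over all peaks with that many reads they were 65.9%, 55.3%, 57.8% and 56.0%. Abca13 alone supplied 109 of the 337 peaks and 22 of the 68 H3K4me3 peaks, 16 of the latter in its body, so the pooled shares lean on 1 long gene.

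Relatives and pathway partners of each member were counted in H3K4me3 among genes with 20 or more reads in each library, since a gene with 1 read in each is set at -1.09 by the depths alone. At that depth 2.14% of 13463 genes were at least 1.5-fold higher in the KO and 1.57% lower. Of 12 genes of pyrimidine salvage 1 was higher and 0 lower, with a median of 0.01. It was Slc28a2, a nucleoside transporter, with 448 in KO against 268 in WT, at 0.67 (0.38 to 0.96). Of 7 scavenger receptors and genes of the Olr1 cluster 0 were higher and 1, Clec7a, lower, with a median of 0.31. Of 5 other ABCA transporters 0 were higher and 2 lower, with a median of -0.12, and the lower ones were Abca8b at -0.69 and Abca9 at -0.70, on 32 and 28 WT reads. Of 8 MBT domain genes 0 were higher and 1, Scml2, was lower at -0.73 (-1.46 to 0.05), with a median of -0.0033. The other 4 lists had 0 genes past 1.5-fold in either direction. They were 9 lipases and lipase partners with a median of 0.01, 7 secretory kinases with -0.18, 16 genes of sialic acid synthesis and transfer with -0.02, and 12 paired immunoglobulin-like receptors and adaptors with -0.02.

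In the other marks few relatives were past 1.5-fold on 20 or more reads in each library. The share of all genes past it at that depth was not counted in these marks, so nothing is read from the genes below. Lmf1, a lipase maturation factor, was at -0.72 (-1.18 to -0.24) in H3K4me1, 1 of 11 in its list. St8sia4, a polysialyltransferase, was at -0.61 (-0.83 to -0.39) in H3K36me3, 1 of 13. In H3K27ac Clec12b, 1 of 13, was at 0.62 (0.21 to 1.04). Pira2, a paired receptor and 1 of 15, was at -0.72 (-0.99 to -0.45) in the same mark. Among marker genes Csf1r, the receptor of the macrophage growth factor, was at -0.72 (-1.03 to -0.41) in H3K4me3 and -0.78 (-1.31 to -0.27) in H3K36me3. Ccr2 of the same list was at 0.50 (0.14 to 0.88) in H3K36me3 and 0.55 (0.20 to 0.93) in H3K27ac, and was chosen after its values were seen. Ms4a3 was at 0.64 (0.0082 to 1.30) in H3K36me3, Ebf1, a B cell factor, at 0.64 (-0.05 to 1.35) in H3K36me3, and Mcpt8, a basophil protease, at 0.74 (0.12 to 1.42) in H3K27ac.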

How the data were processed

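ChIP-seq of 4 histone marks in sorted neutrophils was deposited as 1 consensus peak table per mark, with 1 WT and 1 KO library each. The 2 input samples were not used. Per the submitters' processing notes, the genome build was mm9 and the tools included the aligner Bowtie2 2.2.3, the peak caller MACS2 2.1.0, the read trimmer Trimmomatic 0.32, DiffBind and HOMER, with no order or settings given. The signal columns are the authors' deposited normalized read signal per peak. Each value was a whole multiple of the column's lowest value (largest gap 9.02e-06 of a read), so reads were recovered. The deposited log2 column equals log2(KO/WT), and it was not used further. A peak never falls under 1 read, so 0 and 1 read cannot be told apart.

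Signals were summed per deposited gene name and compared as log2 after adding a pseudocount of 1, so changes of low values are understated. No count model could be fitted, because single libraries leave no residual degrees of freedom. The procedure was tested on simulated reads. Body peaks were assigned through RefSeq transcripts (GRCm38.p6, names only). The members and lists were chosen with earlier results of these data known. Relatives were named at 1.5-fold or more with 20 or more reads in each library, at most 4 a list, flanking genes as the nearest with a peak, and similar genes by Euclidean distance. Intervals are 95% and reflect read counting alone, although reads copied by PCR do not count separate molecules and there is no second animal or library. Intervals came from scipy 1.17.1 under Python 3.11.15, tables from pandas 2.3.3, and figures from matplotlib 3.10.9.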

Additional observations from a re-analysis of the deposited data

How the results depend on the processing

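Pseudocounts of 0 and 5, 3 other centrings, peaks within 5 kb of the start, the highest peak only, a minimum of 10 reads per peak and thinning the deeper library were tried. No value past 1.5-fold changed sign, and all of these were in the marks that chose the genes. Some smaller values did change sign. In H3K4me1 Gp49a went from 0.04 to -0.30 with peaks within 5 kb of the start, and L3mbtl3 from -0.05 to 0.07 with at least 10 reads per peak. The count of genes at least 1.5-fold higher in H3K4me3 went from 5 to 2 of 8 when centred on genes of similar density, beside 4.24% of all genes. The median was then 0.53, and this alternative was added after seeing the data. In H3K36me3 the count went from 2 of 7 to 1 of 3 with peaks within 5 kb of the start, beside 13.3% of all genes so measured. With the highest peak only it was 4 of 7, beside 6.51% of all genes. In H3K27ac the count went from 0 to 2 of 8 with peaks within 5 kb of the start, beside 5.84% of all genes so measured. Lipg was then at 1.26 and Upp1 at 1.03. Intervals above 0 in H3K36me3 went from 6 to 5 of 7 when centred on all peaks or on genes of similar density, by the loss of Abca13. The L3mbtl3 value in H3K36me3 went from 0.35 to 0.13 with the highest peak only. Restricting a gene to its start or its highest peak changes which peaks are summed, and for density the cause was not tested. No paired analysis was possible because each group holds 1 library. For the same reason no library could be left out. WT depth limits H3K4me3, H3K27ac and H3K4me1, where many member peaks rest on under 30 WT reads.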
